A study of Juglans cathayensis with 6 samples.

Results

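Class III peroxidases are plant enzymes that carry a haem group, are mostly secreted to the cell wall or stored in the vacuole, and use hydrogen peroxide to oxidize phenolic compounds. In cell walls they couple monolignols into lignin and phenolics into suberin, and in cut fruit they act beside polyphenol oxidase in enzymatic browning, in which phenolics are turned into dark pigments. They form a large family in every flowering plant examined, so that several close members are usually expressed in a tissue. The genes described here are those of *Juglans cathayensis*, the Chinese walnut, measured in husk, the soft covering around the nut shell. They were chosen by their text annotation alone: the description holds the word peroxidase and none of the words for glutathione, ascorbate, thioredoxin or phospholipid hydroperoxide peroxidases. The rule found 33 of the 39234 assembled genes listed.

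The series set a variety whose freshly cut husk is brown (3 libraries) against a variety whose freshly cut husk is white (3 libraries), to learn about enzymatic browning. All 6 libraries are labelled as husk at 35 days, with no special treatment and no stated event from which the days were counted, and the varieties are not named. Each colour stands for a single variety, so colour and any other difference between the varieties cannot be told apart. Whether the 3 libraries of a variety come from different trees is not stated, so p-values measure only the spread between these libraries, which may be technical. In RNA from whole tissue, fewer cells of a type and less RNA per cell cannot be told apart.

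Levels are given in TPM, a relative abundance corrected for gene length, so that levels of different genes can be compared. The listed genes of a library add up to 994877 to 996692 TPM. How many reads lie behind a value is unknown, because this unit does not retain it. White replicate 2 stood apart from the other libraries, with 28349 genes at 1 TPM or more against 33146 to 35240 in the rest, and with 34.0% of TPM in its 100 highest genes against 24.7% to 27.2%. Genes for light-harvesting proteins and the small subunit of Rubisco, 18 in all and none of them at 0 in any library, summed to 3418 to 6914 TPM in brown and 4957 to 6250 TPM in white husk. Seed storage markers were represented by 2 oleosin genes only, which summed to 12.3 to 23.9 TPM in brown and 36.2 to 52.0 TPM in white husk, and 5 cellulose synthase genes of secondary walls summed to 16.7 to 18.7 TPM in brown and 12.9 to 19.8 TPM in white husk. By limma 0 of the 18 photosynthetic genes had an adjusted p under 0.05 (1 higher and 2 lower at an unadjusted p under 0.05), 1 of the 2 oleosin genes fell and 1 of the 5 secondary wall genes was called higher. That secondary wall gene was under 1 TPM in all 3 white libraries, so it entered the test only through the brown group. Without brown replicate 2 a photosynthetic gene rose. The oleosin call was lost when any library was left out, while both oleosin genes fell with TMM factors (adjusted p = 0.0307 and 0.0394) and with quantile normalization (adjusted p = 0.0382 and 0.0370), and the secondary wall call was lost without brown replicate 2, brown replicate 3 or white replicate 3. No list of markers that define husk was used, and the part of these tissues in the peroxidase values was not tested.

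The KEGG entry for peroxidase is attached to 31 of the 33 genes, and 30 genes carry the Pfam peroxidase domain. The 2 genes without that entry came in by their wording. One is matched to OVEREXPRESSOR OF CATIONIC PEROXIDASE 3 (TRINITY_DN10431_c0_g2), a homeobox protein of *Arabidopsis* defence signalling that is no peroxidase. Another is described as lignin-forming anionic peroxidase-like (TRINITY_DN6920_c0_g2), is 317 bases long, and has a retrotransposon protein as its Swiss-Prot match. Of the 33 descriptions, 32 come from *Juglans regia*, the common walnut. The GO annotation places 18 genes in the extracellular region, 16 in the cell wall and 2, both peroxidase 17-like, in the vacuole, and it ties 6 genes to lignin synthesis. Lengths ran from 244 to 1771 bases with a median of 1194, and 4 genes were shorter than 600 bases, far shorter than the median. The 33 genes fell into 29 assembly clusters, and 3 clusters held more than 1 of them: peroxidase 12-like with 3 genes, peroxidase 72-like with 2, and a pair of short peroxidase A2-like genes. Quantification may divide reads among closely similar copies, which leaves the value of each such gene uncertain.

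In brown husk the peroxidase genes together had more transcript than in white husk, and most of it came from a few genes. Summed over all 33 genes, the level was 1203, 1696 and 1585 TPM in brown replicates 1, 2 and 3, against 716, 654 and 690 TPM in white replicates 1, 2 and 3. Every brown library was above every white one, and the means were 1495 ± 259 TPM in brown and 687 ± 31.4 TPM in white husk (SD, n = 3 each), a ratio of 2.18. This sum is given as a description, without a test. The ratio was 1.91 with TMM factors, 2.16 after quantile normalization and 2.03 to 2.39 when 1 library was left out. Without peroxidase 73-like, the gene with the highest mean, it was 1.83. As a share of all TPM the family made up 0.121% to 0.171% in brown and 0.0656% to 0.0720% in white husk.

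**Figure D1:**
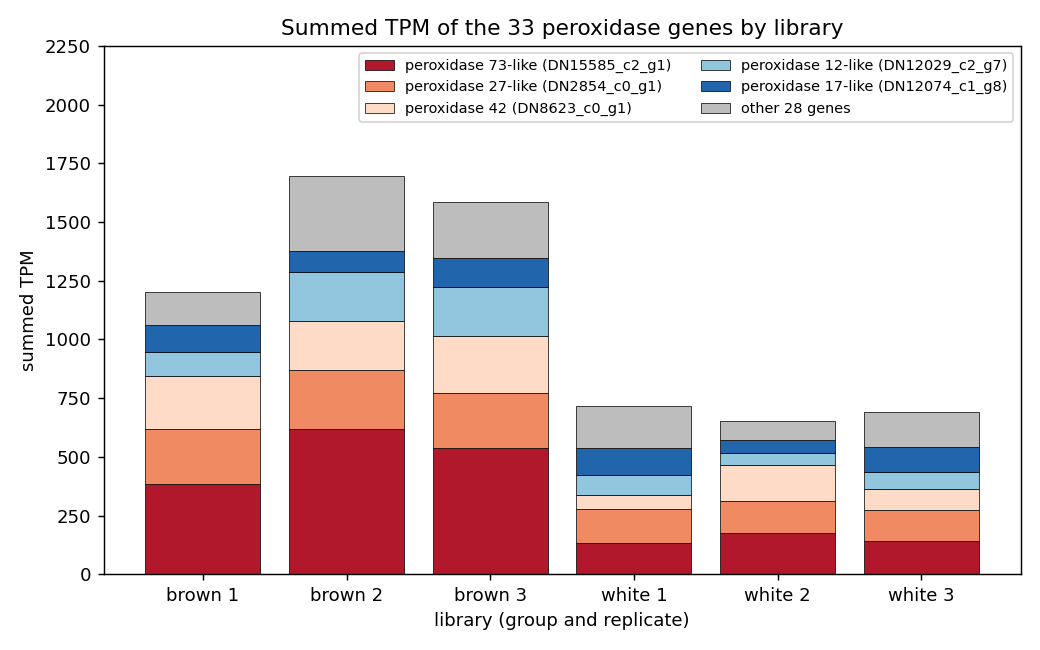
Summed TPM (vertical axis) of the 33 peroxidase genes in each of the 6 libraries (horizontal axis), with the 5 genes of highest mean level stacked by colour and the other 28 genes in grey. The brown libraries reach 1203 to 1696 TPM and the white libraries 654 to 716 TPM, and the 5 genes make up most of each bar.

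The 5 most abundant genes were peroxidases 73-like, 27-like, 42, 12-like and 17-like, and they took 81.3% to 88.1% of the family's TPM in brown and 74.9% to 87.5% in white husk. Summed, these 5 genes had 1060 to 1379 TPM in brown and 536 to 572 TPM in white husk. The other 28 genes had 143, 318 and 239 TPM in brown replicates 1, 2 and 3, against 180.0, 82.0 and 147 TPM in the white ones, so for them the groups overlapped.

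The filter of 1 TPM or more in 3 or more libraries let 30 of the 33 genes into the test, and 3 were not tested. Among those tested, 3 rose in brown husk and 0 fell at an adjusted p under 0.05 (limma on log2(TPM + 1), Benjamini-Hochberg over 37829 genes). That is 10% of the peroxidase genes tested, against 3.83% of all genes tested that were higher and 2.17% that were lower in brown husk. At an unadjusted p under 0.05 there were 11 higher and 3 lower genes. The count of 3 rests on few libraries. It was 7 without brown replicate 1, and 1 without brown replicate 2, brown replicate 3 or white replicate 3. A single gene fell without white replicate 2, with the 5 TPM filter, with TMM factors and with quantile normalization, and it was peroxidase 7-like each time. In 2 of the tested genes, peroxidase N1-like and the lignin-forming anionic peroxidase-like fragment, all 3 white libraries were under 1 TPM. These passed the filter only through the brown group. Cationic peroxidase 1-like (TRINITY_DN10961_c0_g1), among the 3 that rose, had 1.12, 0.10 and 0.64 TPM in white husk and likewise needed the brown group to pass. The brown group was also needed by P7, 19-like, 16-like, 3-like, 47, A2-like (TRINITY_DN13514_c1_g9) and 12-like (TRINITY_DN12029_c2_g5), each under 1 TPM in some white library. Peroxidase 5-like, with 0.24, 1.27 and 0.54 TPM in brown husk, needed the white group, as did 72-like (TRINITY_DN12708_c3_g10) and 47. Counts and medians over the tested genes are therefore not evidence of a direction.

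Each difference is the fitted brown mean of log2(TPM + 1) less the white one, a scale on which the change of low genes is understated. The median difference over the 30 tested peroxidase genes was 0.62, against 0.19 over all genes tested, with 21 positive and 9 negative. Scaling moved both medians: they were 0.50 and 0.05 with TMM factors, and 0.35 and -0.01 after quantile normalization. The split was then 19 positive and 11 negative with TMM factors and 18 and 12 after quantile normalization. A positive difference was found for 70% of the peroxidase genes and for 64.3% of all genes tested. Over all 33 genes, 13 had every brown library above every white one, which is 39.4% against 20.2% of all genes listed. In 3 genes every brown library was below every white one, 9.09% against 8.74% of all genes listed, and in the other 17 the groups overlapped.

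**Figure D2:**
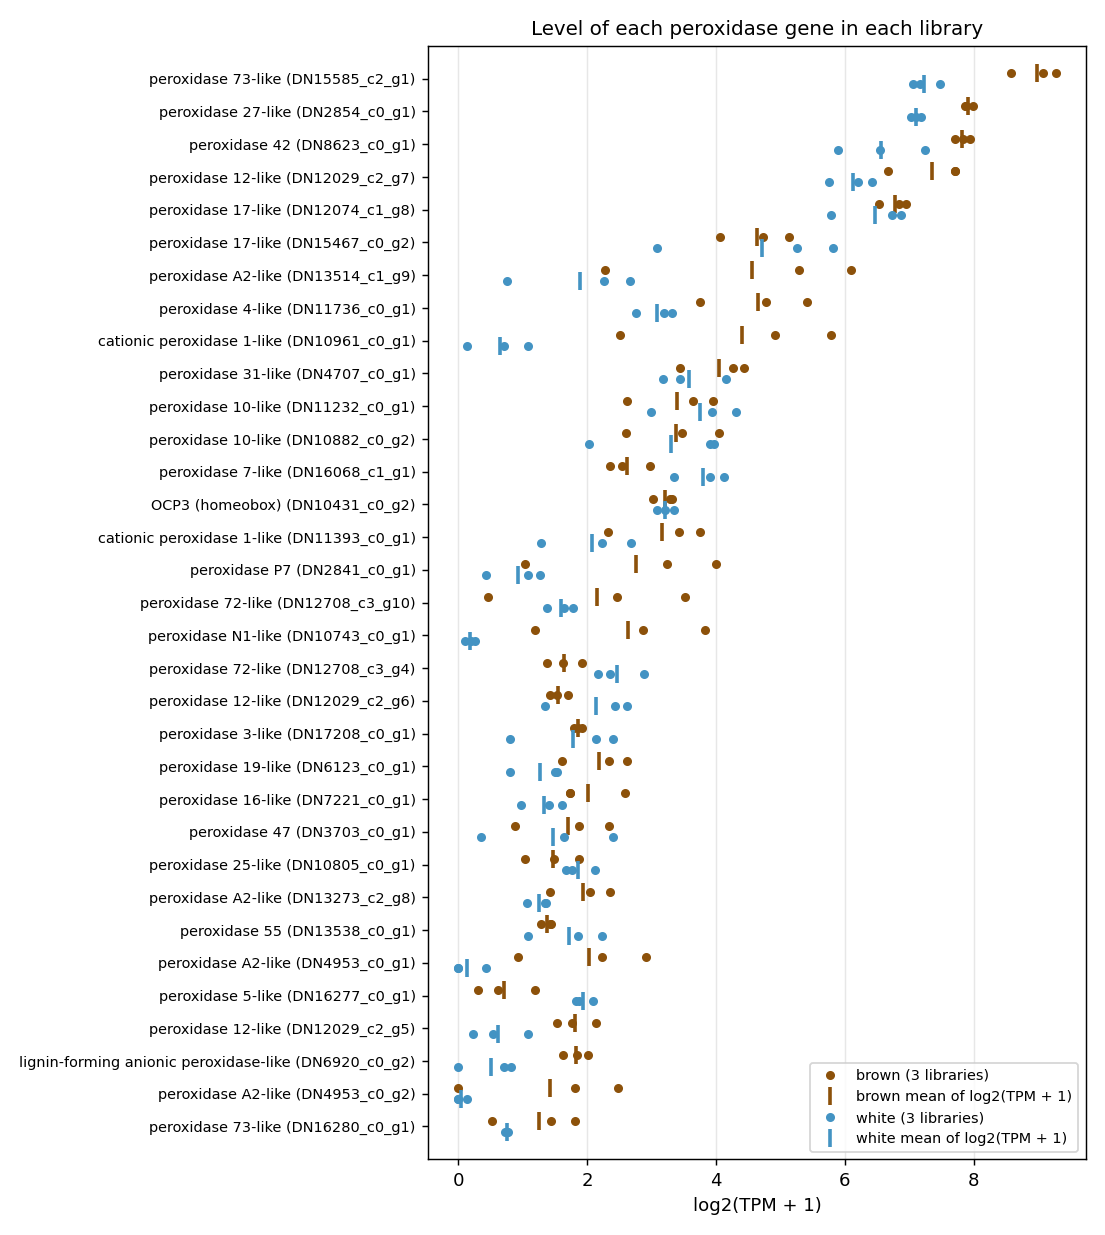
Level of each of the 33 peroxidase genes as log2(TPM + 1) (horizontal axis), with brown points above and white points below on each gene's line, 1 point for each library and a bar at the mean of the 3 plotted values. Genes are sorted by their mean over all libraries, from peroxidase 73-like at the top, and 13 genes have all brown points to the right of all white points.

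Peroxidase 73-like (TRINITY_DN15585_c2_g1), whose Swiss-Prot match is peroxidase 51, was the most abundant gene of the family in 5 of the 6 libraries. It had 383, 618 and 539 TPM in brown replicates 1, 2 and 3, against 132, 177 and 143 TPM in white replicates 1, 2 and 3. The lowest brown library was well above the highest white one. Its fitted difference was 1.74 ± 0.22 (SE, limma adjusted p = 0.00698), and with 514 ± 119 TPM in brown and 151 ± 23.3 TPM in white husk (SD, n = 3 each) it had 3.41 times the white level. It made up 34.4% of the family's mean level in brown and 22.0% in white husk. It rose in each of the 15 alternative settings, with differences of 1.56 to 1.94. Its assembly cluster lists 9 genes, and no other of them is described as a peroxidase. Of the other 8 genes of that cluster, 4 were called higher in brown husk, a pair described as cytochrome P450 704B1-like, one as a pentatricopeptide repeat protein and one without a description. All 4 were under 1 TPM in every white library and so entered the test only through the brown group. A gene for GLE1, an mRNA export factor, fell, with 10.7, 17.6 and 7.34 TPM in brown against 39.7, 35.7 and 39.9 TPM in white husk. Over the clusters of all 33 genes, 64 other listed genes share a cluster with a peroxidase gene. Of these, 6 were called higher, these 4 among them, and only the GLE1 gene lower. Over all genes tested, 3.83% were called higher and 2.17% lower. A further gene described as peroxidase 73-like (TRINITY_DN16280_c0_g1), in another cluster, had the lowest mean level of the 33. Its levels were 2.52, 0.44 and 1.71 TPM in brown and 0.70, 0.69 and 0.65 TPM in white husk, and it was not tested.

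Peroxidase 27-like (TRINITY_DN2854_c0_g1) was the steadiest of the abundant genes. It had 234, 253 and 231 TPM in brown husk, against 145, 137 and 129 TPM in white husk. The 2 groups were separated by a gap larger than the range within either of them. Its difference was 0.80 ± 0.13 (SE, limma adjusted p = 0.0158), or 1.75 times the white level, the smallest among the 3 genes that rose. The call was lost with TMM factors (adjusted p = 0.0703), without the mean-variance trend, and without any 1 brown library or white replicate 3, with an adjusted p of 0.0206 to 0.0896 over the 6 fits that left out 1 library.

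Peroxidase 42 (TRINITY_DN8623_c0_g1) had 228, 208 and 245 TPM in brown husk, against 58.7, 151 and 92.4 TPM in white husk. Brown libraries were close to each other and all above the white ones, while the white libraries differed by up to 2.57 times, with white replicate 2 the highest. Its difference was 1.26 ± 0.31 with an adjusted p of 0.0626 by limma, and without white replicate 2 it was 1.61 with an adjusted p of 0.0163. Without any other library the adjusted p was 0.0832 to 0.184 by limma.

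Peroxidase 12-like (TRINITY_DN12029_c2_g7) had 101, 208 and 208 TPM in brown husk, against 84.7, 53.2 and 72.6 TPM in white husk. Brown replicate 1 lay nearer to the white libraries than to the other brown ones. The fitted difference was 1.23 ± 0.31 (SE, limma adjusted p = 0.0666), and 1.58 with an adjusted p of 0.0216 without brown replicate 1. When any other library was left out, the limma adjusted p was 0.0853 to 0.208. It shares its cluster with 2 lower genes of the same description. One of them (TRINITY_DN12029_c2_g5) had 1.88, 3.41 and 2.39 TPM in brown against 0.17, 0.45 and 1.11 TPM in white husk. In the other (TRINITY_DN12029_c2_g6) the levels were 2.27, 1.67 and 1.89 TPM in brown against 5.16, 1.54 and 4.40 TPM in white husk. Neither passed the threshold, and their fitted differences had opposite signs, at 1.20 ± 0.36 and -0.58 ± 0.40. None of the other genes listed in that cluster is described as a peroxidase, and one of them, an uncharacterized protein gene (TRINITY_DN12029_c2_g3), rose, with 355, 237 and 372 TPM in brown against 136, 118 and 135 TPM in white husk (limma adjusted p = 0.0141).

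The peroxidase 17-like genes are named for an *Arabidopsis* peroxidase linked to lignified tissue. The more abundant (TRINITY_DN12074_c1_g8) had 114, 91.7 and 123 TPM in brown against 116, 54.1 and 106 TPM in white husk. The second (TRINITY_DN15467_c0_g2) had 34.1, 15.8 and 25.5 TPM in brown against 55.5, 7.52 and 37.2 TPM in white husk. In both genes the groups overlapped and the second replicate was the lowest library of each group. Their differences were 0.31 ± 0.29 (adjusted p = 0.581) and -0.08 ± 0.66 (adjusted p = 0.961) by limma, with 95% intervals of -0.36 to 0.99 and -1.63 to 1.48, so changes in either direction fall within both intervals.

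Genes tied to lignin synthesis by their GO terms were cationic peroxidase 1-like (2 genes), peroxidase 72-like (2 genes), peroxidase 4-like and peroxidase P7. Summed, they had 25.4, 135 and 80.5 TPM in brown replicates 1, 2 and 3, against 23.4, 12.7 and 22.1 TPM in white replicates 1, 2 and 3. Brown replicate 1 was barely above the highest white library, while brown replicates 2 and 3 were several times above it. A single gene of the 6 rose, cationic peroxidase 1-like (TRINITY_DN10961_c0_g1), named for a peroxidase of peanut. It had 4.71, 54.2 and 29.2 TPM in brown against 1.12, 0.10 and 0.64 TPM in white husk, a difference of 3.76 ± 0.78 (SE, limma adjusted p = 0.0356). Every brown library was above every white one, but the brown libraries spanned 11.5 times. Of the white libraries only replicate 1 reached 1 TPM, so the gene passed the filter through the brown group. With the filter of 5 TPM it was not tested. The call was kept without brown replicate 1 (adjusted p = 0.00771) and lost when any other library was left out (adjusted p = 0.0664 to 0.134), and also without the trend, with array weights, with quantile normalization (adjusted p = 0.0520) and with the replicate block (adjusted p = 0.0726).

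The second cationic peroxidase 1-like gene (TRINITY_DN11393_c0_g1) had 4.0, 12.5 and 9.71 TPM in brown against 5.42, 1.44 and 3.71 TPM in white husk. Its groups overlapped, and its difference of 1.10 ± 0.49 had an adjusted p of 0.249 by limma. Peroxidase 4-like (TRINITY_DN11736_c0_g1) had 12.5, 41.5 and 26.5 TPM in brown against 8.94, 5.77 and 8.15 TPM in white husk. All of its brown libraries were above the white ones, with a difference of 1.56 ± 0.40 (adjusted p = 0.0702 by limma). Peroxidase P7 (TRINITY_DN2841_c0_g1), named for a turnip enzyme, had 1.04, 14.9 and 8.43 TPM in brown against 1.40, 0.35 and 1.12 TPM in white husk. Brown replicate 1 was thus within the white range. The peroxidase 72-like genes, named for an *Arabidopsis* lignin peroxidase, sit in 1 assembly cluster and had fitted differences of opposite sign in the fit to all libraries, though not without brown replicate 2. TRINITY_DN12708_c3_g10 had 0.37, 10.5 and 4.54 TPM in brown against 2.45, 1.60 and 2.11 TPM in white husk. For TRINITY_DN12708_c3_g4 the levels were 2.80, 1.60 and 2.10 TPM in brown against 4.09, 3.48 and 6.34 TPM in white husk. In the first, brown replicate 1 was the lowest of all 6 libraries, and in the second every brown library was below every white one, with a difference of -0.82 ± 0.32 (adjusted p = 0.200 by limma).

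The description peroxidase A2-like is carried by 4 genes whose Swiss-Prot matches differ. The most abundant (TRINITY_DN13514_c1_g9), matched to peroxidase 53, had 3.85, 67.6 and 38.0 TPM in brown against 5.33, 0.68 and 3.78 TPM in white husk. Brown replicate 1 was inside the white range while brown replicates 2 and 3 were far above it. The difference was 2.67 ± 0.97 (SE, limma adjusted p = 0.169), and 3.80 with an adjusted p of 0.0273 without brown replicate 1. When any other library was left out, the limma adjusted p was 0.178 to 0.402. A second gene (TRINITY_DN13273_c2_g8), matched to peroxidase 54, had 1.68, 4.13 and 3.12 TPM in brown against 1.53, 1.58 and 1.09 TPM in white husk. All its brown libraries were above its white ones, and its adjusted p was 0.317 by limma. Both remaining genes are matched to lignin-forming anionic peroxidase, share an assembly cluster and were not tested. The first, TRINITY_DN4953_c0_g1, 332 bases long, had 0.91, 6.51 and 3.69 TPM in brown and was listed at 0, 0 and 0.34 TPM in white husk. The other, TRINITY_DN4953_c0_g2, 549 bases long, was listed at 0, 4.58 and 2.51 TPM in brown and at 0, 0.10 and 0 TPM in white husk. Peroxidase N1-like (TRINITY_DN10743_c0_g1), named for a tobacco enzyme, had 1.29, 13.2 and 6.32 TPM in brown against 0.19, 0.15 and 0.07 TPM in white husk. Its groups did not overlap, and its difference was 2.45 ± 0.63 (adjusted p = 0.0706 by limma).

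**Figure D3:**
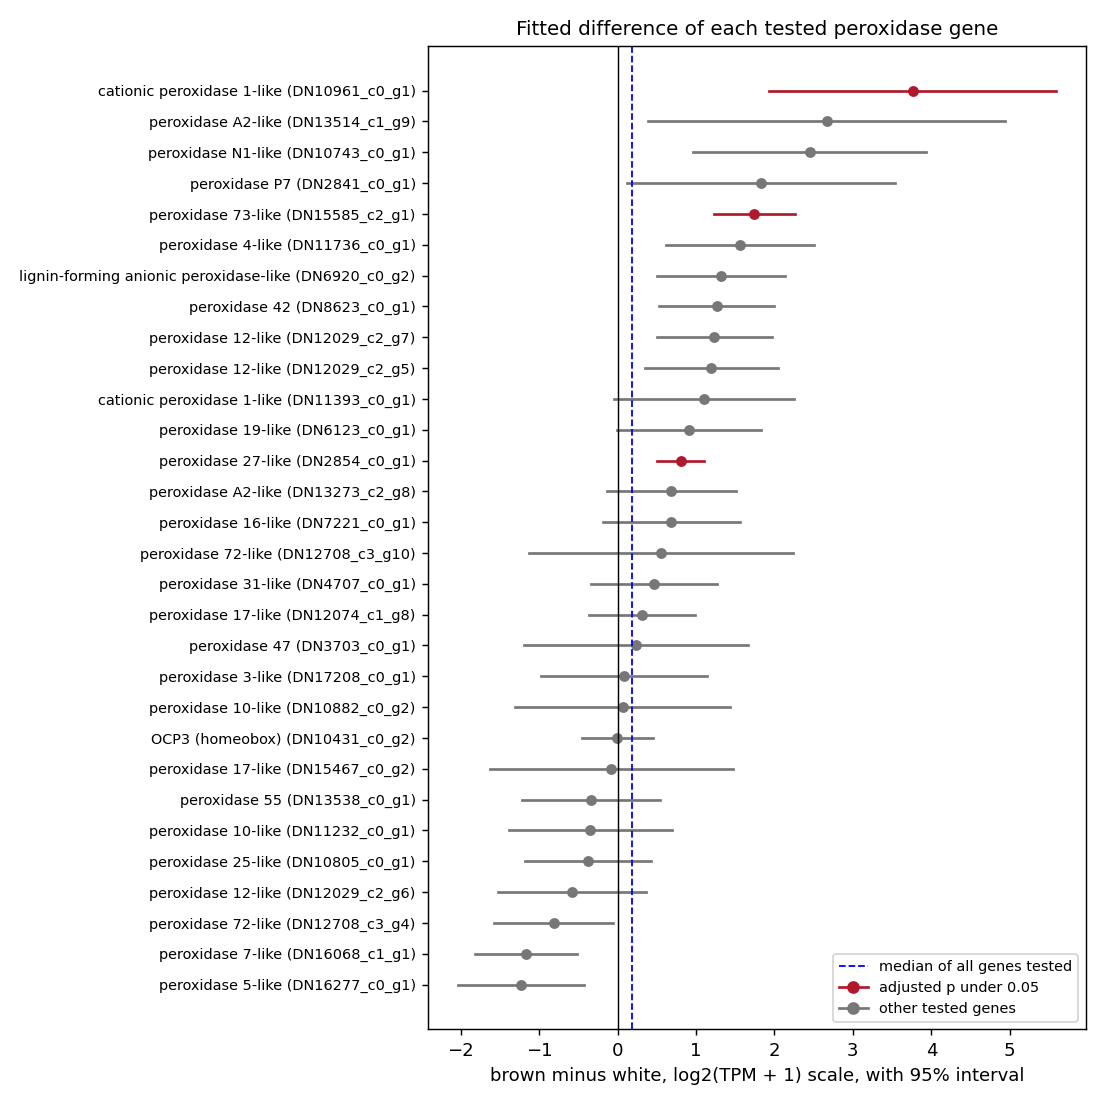
Fitted brown minus white difference on the log2(TPM + 1) scale (horizontal axis) with its 95% interval for each of the 30 tested peroxidase genes. Red marks the 3 genes with an adjusted p under 0.05, and the dashed line at 0.19 is the median of all genes tested. Intervals are wide for cationic peroxidase 1-like, A2-like, N1-like and P7 and narrow for peroxidase 27-like.

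Lower values in brown husk were found for peroxidases 7-like and 5-like, though neither passed the threshold. Peroxidase 7-like (TRINITY_DN16068_c1_g1), assembled with 9 isoforms, had 4.09, 4.83 and 6.87 TPM in brown against 16.4, 9.24 and 14.1 TPM in white husk. It has the KEGG entry for peroxidase, but neither the Pfam peroxidase domain nor a Swiss-Prot match. Its difference was -1.17 ± 0.28 (SE, limma adjusted p = 0.0544). With TMM factors (-1.33, adjusted p = 0.0183), quantile normalization (-1.37, adjusted p = 0.0192), a filter of 5 TPM (adjusted p = 0.0391) and without white replicate 2 (-1.39, adjusted p = 0.0313) it passed the threshold. Peroxidase 5-like (TRINITY_DN16277_c0_g1) had 0.24, 1.27 and 0.54 TPM in brown against 2.67, 3.25 and 2.56 TPM in white husk, a difference of -1.23 ± 0.34 (adjusted p = 0.0884 by limma). For each of these genes all brown libraries were below all white ones.

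Among the remaining genes the groups mostly overlapped. Peroxidase 31-like (TRINITY_DN4707_c0_g1) had 9.91, 20.7 and 18.2 TPM in brown against 8.02, 16.8 and 9.85 TPM in white husk, and its adjusted p was 0.489 by limma. The peroxidase 10-like genes shared a pattern in which the second replicate was lowest in each group. The first (TRINITY_DN11232_c0_g1) had 14.5, 5.12 and 11.5 TPM in brown against 18.9, 6.95 and 14.4 TPM in white husk. The other (TRINITY_DN10882_c0_g2) had 15.5, 5.06 and 10.1 TPM in brown against 14.7, 3.09 and 14.0 TPM in white husk. The same shape held for peroxidase 47 (TRINITY_DN3703_c0_g1), named for an *Arabidopsis* gene of vessel lignification. It had 4.08, 0.84 and 2.68 TPM in brown against 4.26, 0.28 and 2.12 TPM in white husk. Peroxidases 19-like (TRINITY_DN6123_c0_g1) and 16-like (TRINITY_DN7221_c0_g1) had all brown libraries above all white ones at low levels. The means were 3.74 ± 1.57 TPM in brown and 1.48 ± 0.642 TPM in white husk for 19-like, and 3.20 ± 1.54 TPM in brown and 1.55 ± 0.545 TPM in white husk for 16-like (SD, n = 3 each). Overlapping groups were found for peroxidase 3-like (TRINITY_DN17208_c0_g1), 2.63 ± 0.165 TPM in brown and 2.80 ± 1.83 TPM in white husk, and for peroxidase 25-like (TRINITY_DN10805_c0_g1), 1.85 ± 0.811 TPM in brown and 2.64 ± 0.624 TPM in white husk. Peroxidase 55 (TRINITY_DN13538_c0_g1) had 1.61 ± 0.147 TPM in brown and 2.48 ± 1.29 TPM in white husk, also with overlap. Of the 2 genes without the KEGG entry for peroxidase, the OVEREXPRESSOR OF CATIONIC PEROXIDASE 3 gene had 8.28 ± 0.980 TPM in brown and 8.30 ± 0.826 TPM in white husk. Its difference was 0.00 ± 0.19, with a 95% interval of -0.46 to 0.45. The fragment TRINITY_DN6920_c0_g2 had 2.58, 3.04 and 2.08 TPM in brown against 0, 0.63 and 0.76 TPM in white husk. Without these 2 genes the counts of 3 and 0 were the same, and the ratio of the sums was 2.19.

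The brown libraries differed from each other in a way that many peroxidase genes shared. Among the 33 genes, 18 had their top brown level in replicate 2 and their bottom brown level in replicate 1, which is 54.5% against 20.6% of all genes listed. Cationic peroxidase 1-like, A2-like, P7, N1-like, 4-like and one peroxidase 72-like gene were among them. Every brown library was above every white one in 9 of the 18, against 13 of all 33 genes and 20.2% of all genes listed. The opposite order, with brown replicate 1 highest and brown replicate 2 lowest, was found in 9 genes, or 27.3% against 21.9% of all genes listed. Both peroxidase 10-like genes, peroxidase 47, peroxidase 55 and one peroxidase 17-like gene were in this group, no gene of it passed the threshold, and in 7 of the 9 white replicate 2 was the lowest white library. The genes are not independent of each other, so these shares describe the 3 brown libraries and were not tested. The light-harvesting and Rubisco genes summed to 6914, 3418 and 5910 TPM in brown replicates 1, 2 and 3, against 4957, 6250 and 5823 TPM in white replicates 1, 2 and 3. Brown replicate 2 was thus the lowest library for photosynthetic transcripts, and 10 of those 18 genes had brown replicate 1 highest and brown replicate 2 lowest. Their part in the peroxidase pattern was not tested.

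**Figure D4:**
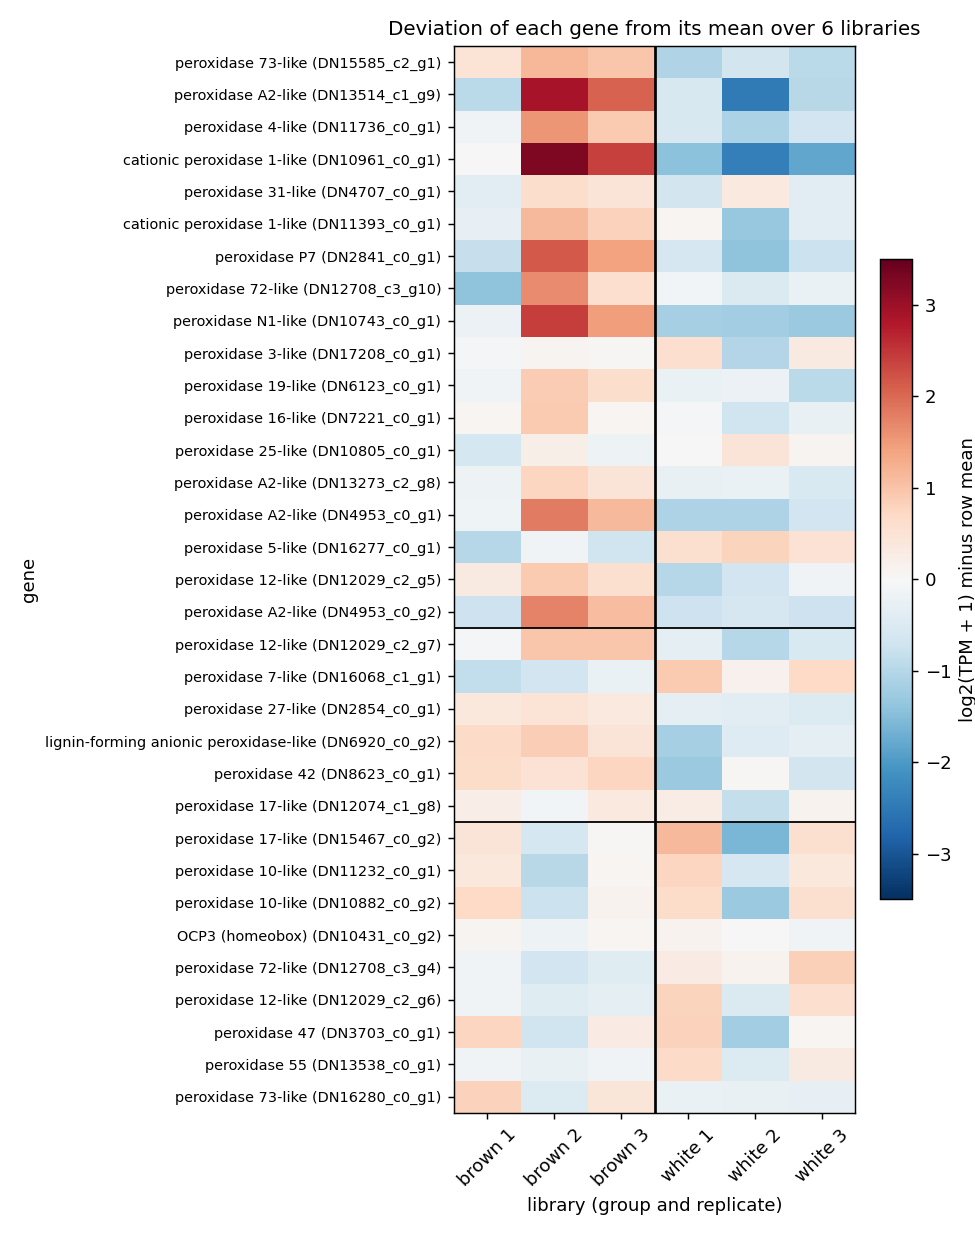
Deviation of log2(TPM + 1) from the gene's mean over 6 libraries (colour, red above and blue below) for the 33 peroxidase genes (rows) in each library (columns, brown left of white). The upper block holds the 18 genes with brown replicate 2 highest and brown replicate 1 lowest among the brown libraries, and the lowest block the 9 genes with the reverse order.

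Class III peroxidases need hydrogen peroxide, share their phenolic substrates with laccases and polyphenol oxidase, and work with dirigent proteins, which steer the coupling of phenolic radicals. These partners were taken from 12 text lists. Of 12 dirigent protein genes 4 rose and 0 fell by limma (5 higher and 1 lower at an unadjusted p under 0.05). Over all genes tested, 3.83% were called higher and 2.17% lower. The median difference of the dirigent genes was 0.64, against 0.19 over all genes tested. Among those that rose, TRINITY_DN13193_c1_g8, TRINITY_DN13193_c1_g2 and TRINITY_DN13193_c1_g5 share an assembly cluster, so reads may be divided among them. When a library was left out, the call of TRINITY_DN13193_c1_g5 was kept only without brown replicate 1. The summed level of the 12 genes was 199.7, 410.2 and 309 TPM in brown replicates 1, 2 and 3, against 142, 111 and 129 TPM in white replicates 1, 2 and 3. Dirigent protein 22-like (TRINITY_DN15176_c1_g1) had 29.5, 57.6 and 50.0 TPM in brown against 1.54, 0.59 and 1.15 TPM in white husk, a difference of 4.45 (limma adjusted p = 0.000661). With white replicate 2 under 1 TPM, this gene needed the brown group to pass the filter. Dirigent protein 19-like (TRINITY_DN13193_c1_g8) had 19.0, 56.3 and 37.4 TPM in brown against 3.25, 1.82 and 2.20 TPM in white husk. The order seen in many peroxidase genes, brown replicate 2 above 3 above 1, was found in 8 of the 12 dirigent genes, against 20.6% of all genes listed. The genes that share the cluster named above are among the 8, so the 8 are not independent of each other. The number that rose was 2 without brown replicate 3 and 3 or 4 without any other library, and 1 dirigent gene fell without white replicate 1.

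Genes for enzymes that supply hydrogen peroxide are set beside the 3.83% of all genes tested that were called higher and the 2.17% called lower. By limma it was 0 of 9 NADPH oxidase genes (0 also at an unadjusted p under 0.05) and 0 of 10 superoxide dismutase genes (0 higher and 1 lower unadjusted), of which 1 fell without white replicate 2. Of 16 germin-like genes, cell wall proteins some of which make hydrogen peroxide, 2 were called higher (6 higher and 0 lower unadjusted). Both called genes were under 1 TPM in all white libraries, so that they entered the test only through the brown group. The germin-like genes summed to 94.7, 191 and 141 TPM in brown replicates 1, 2 and 3, against 87.7, 63.8 and 74.2 TPM in the white ones. Sums of the NADPH oxidase, superoxide dismutase and amine oxidase genes overlapped between the groups. Germin-like protein 2-1 (TRINITY_DN16827_c0_g1) had 4.50, 3.77 and 4.43 TPM in brown husk and was listed at 0 in all 3 white libraries. The germin-like gene of subfamily 1 member 14 (TRINITY_DN15260_c0_g3) had 2.28, 17.6 and 10.8 TPM in brown against 0.19, 0.06 and 0.31 TPM in white husk, and its call was kept in only 1 of the 6 fits that left out a library, the fit without brown replicate 1. Without brown replicate 1 there were 4 germin-like genes called higher, and 1 without brown replicate 2 or 3 or white replicate 1 or 3. Of 11 amine oxidase genes 1 rose (2 higher and 1 lower unadjusted). This gene (TRINITY_DN16816_c0_g1) had 9.20, 19.9 and 14.6 TPM in brown against 4.92, 2.24 and 5.07 TPM in white husk. Its call, too, was kept only in the fit without brown replicate 1 among those 6.

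Enzymes that remove hydrogen peroxide inside cells had no gene past the threshold by limma. These were 3 catalase genes (1 higher at an unadjusted p under 0.05), 5 ascorbate peroxidase genes (1 lower unadjusted), 4 glutathione peroxidase genes (0 unadjusted) and 6 peroxiredoxin genes (1 higher unadjusted). With the 5 TPM filter 1 catalase gene rose. Catalase isozyme 3-like (TRINITY_DN15486_c0_g1) had 3988, 3950 and 4340.0 TPM in brown against 2750.5, 2478 and 2840.3 TPM in white husk, all brown libraries above all white ones (limma adjusted p = 0.375). The cytosolic L-ascorbate peroxidase (TRINITY_DN11486_c0_g1) had 531, 521 and 650 TPM in brown against 830, 332 and 678 TPM in white husk, with overlap.

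Polyphenol oxidase, the copper enzyme that oxidizes phenolics with oxygen, had 2 genes, with a summed level of 82.2, 213 and 148 TPM in brown replicates 1, 2 and 3, against 35.2, 20.4 and 30.4 TPM in white husk. One of these (TRINITY_DN12255_c0_g1) rose, with 78.3, 162 and 121 TPM in brown against 34.3, 20.3 and 29.2 TPM in white husk (limma adjusted p = 0.0110). That call was lost without brown replicate 3, and both genes passed without brown replicate 1. Among laccases, copper enzymes that oxidize monolignols, 6 of 12 listed genes could be tested and 1 was called higher, laccase-15-like (TRINITY_DN15107_c2_g3), with 17.2, 6.73 and 10.6 TPM in brown against 0.90, 0.09 and 0.40 TPM in white husk. It, too, passed the filter of 1 TPM only through the brown group. The laccase sum was 39.3, 141 and 80.9 TPM in brown against 26.8, 186 and 80.3 TPM in white husk, so the groups overlapped. CASP and CASP-like proteins, some of which hold peroxidases at the Casparian strip of roots in *Arabidopsis*, had 0 of 27 genes past the threshold in either direction by limma (3 higher and 3 lower at an unadjusted p under 0.05), with a median difference of 0.01, and 1 of them fell with TMM factors or quantile normalization. A list for epidermis and cuticle was made of 3-ketoacyl-CoA synthases, GDSL esterases and lipases and lipid-transfer proteins, which are not limited to epidermis. It summed to 1443 to 1718 TPM in brown and 935 to 1092 TPM in white husk. By limma 9 of 75 tested genes were higher and 2 lower, against 3.83% and 2.17% of all genes tested. At an unadjusted p under 0.05, 22 were higher and 8 lower. The median difference of this list was 0.03, against 0.19 over all genes tested, and -0.12 with TMM factors and -0.18 after quantile normalization. A positive difference was found for 38 of the 75 genes, and for 64.3% of all genes tested. There were 6 to 13 higher when 1 library was left out. With TMM factors there were 15 higher and 4 lower, and with quantile normalization 15 higher and 5 lower. Among the 9, TRINITY_DN12061_c3_g11 and TRINITY_DN14563_c0_g3 were under 1 TPM in all white libraries and entered the test only through the brown group. TRINITY_DN15860_c1_g1, TRINITY_DN15860_c1_g2 and TRINITY_DN15860_c1_g3, also among the 9, share an assembly cluster. These epidermal sums did not overlap between the groups, and their part in the peroxidase values was not tested.

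**Figure D5:**
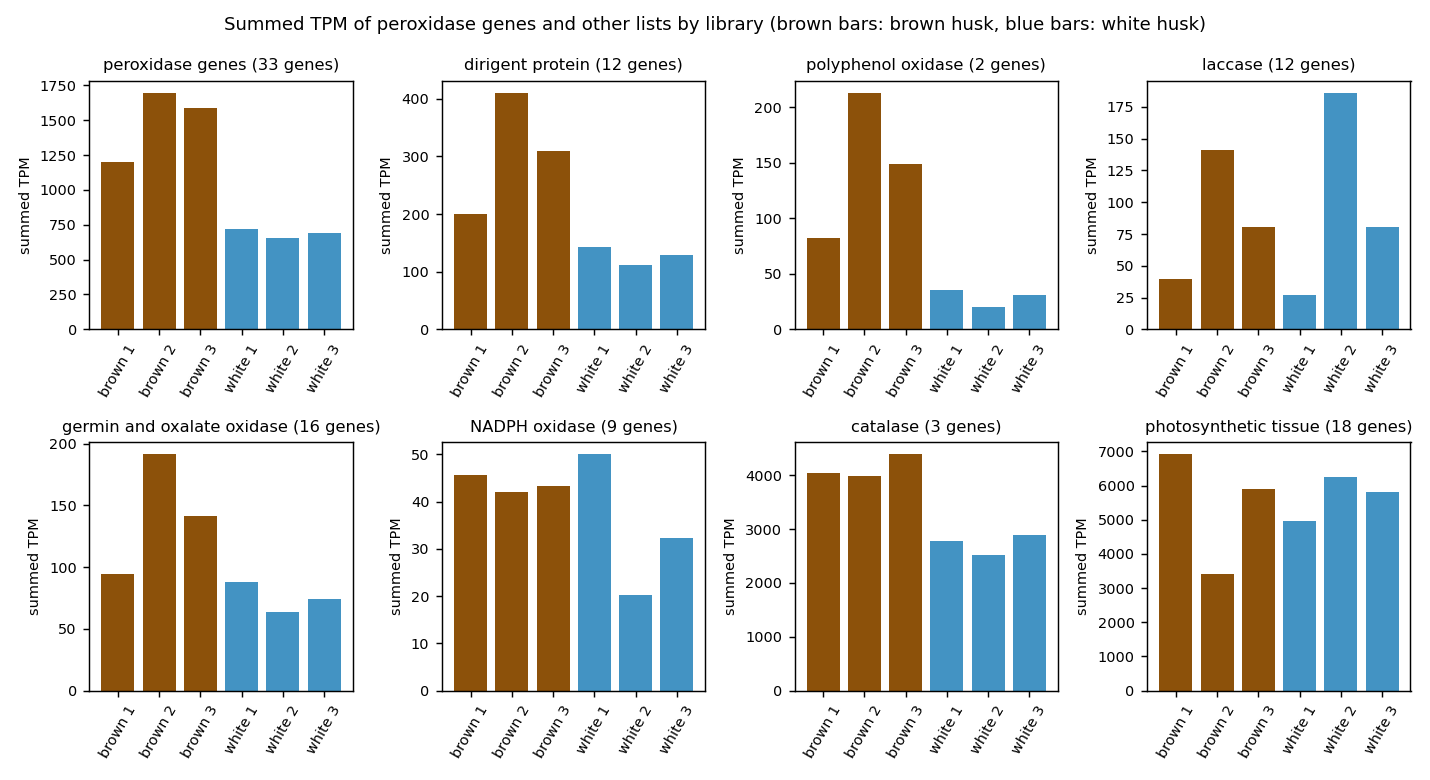
Summed TPM (vertical axes, each from 0 and each with its own range) in the 6 libraries for the 33 peroxidase genes and for 7 other lists, brown husk as brown bars left of white husk as blue bars. Dirigent proteins, polyphenol oxidases, germin-like genes and peroxidases have their highest bar in brown replicate 2, while photosynthetic genes have their lowest bar there.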

How the data were processed

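Husk of both varieties was profiled by RNA sequencing in 6 libraries. For every assembled gene the deposited table holds its length, annotation and a TPM value per library. Gene identifiers carry the name of the assembler Trinity, per the deposited file, and cutadapt and FastQC are named in the submitters' processing notes. Which program computed TPM is not given in the sources used here. Each listed gene reaches 2.01 TPM or more in some library, and genes below that are not analysed here.

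Groups follow the colour in the labels. TPM values were transformed as log2(TPM + 1), genes reaching 1 TPM in 3 or more libraries were kept, and brown was compared with white by limma 3.58.1 (R 4.3.3) with a mean-variance trend and Benjamini-Hochberg adjustment over all genes tested, with a threshold of 0.05. The fit was tested on simulated data. Alternatives were other pseudocounts (0.1, 0.5), no filter or 5 TPM, TMM factors computed on the TPM values, quantile normalization, no trend, array weights, a replicate block and leaving out each library. Every peroxidase gene is named; full values go to those past the threshold, the 6 most abundant and the 3 largest differences each way, and other genes with non-overlapping groups or a shared description were added after their values were seen, as were 2 cluster neighbours. From the other lists, genes past the threshold and the most abundant gene may be named. Members and lists were chosen with earlier results of these data known. Pairing was checked by correlating deviations of same-numbered libraries from their group means.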

Additional observations from a re-analysis of the deposited data

How the results depend on the processing

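Under 15 alternative settings of the fit, 22 of the 30 tested peroxidase genes kept the sign of their difference in every setting that tested them, and peroxidase 73-like rose in all 15. The count that rose, 3, was 1 without the mean-variance trend and 1 to 7 when 1 library was left out. It was 2 with a filter of 5 TPM, with TMM factors, with quantile normalization and with the replicate block. The count that fell, 0, was 1 with a filter of 5 TPM, 1 with TMM factors, 1 with quantile normalization and 0 to 1 when 1 library was left out. The ratio of summed TPM stayed between 1.83 and 2.39 in every alternative run for it. Over all genes, the 1450 higher and 819 lower genes were 1361 and 1151 with TMM factors and 1259 and 1275 with quantile normalization. The cause of these shifts was not tested.

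The 8 genes whose sign changed had differences no larger than 0.55 in the fit to all libraries, and none passed the threshold there. When 1 library was left out, the difference ran from -0.026 to 0.51 for the more abundant peroxidase 17-like gene and from -0.89 to 0.47 for the other (0.21 without brown replicate 2, 0.19 without white replicate 3). It ran from -0.73 to 0.047 for peroxidase 10-like (TRINITY_DN11232_c0_g1) and from -0.57 to 0.45 for the other such gene (-0.27 without brown replicate 1), which was at -0.080 with TMM factors, -0.14 with quantile normalization and -0.10 with array weights. It ran from -0.41 to 0.39 for peroxidase 3-like, which was at -0.015, -0.23 and -0.12 under those 3 settings. For peroxidase 47 the range was -0.32 to 0.70 (-0.08 without brown replicate 1), with -0.10 after quantile normalization and -0.027 with array weights. It was -0.067 to 0.086 for the OVEREXPRESSOR OF CATIONIC PEROXIDASE 3 gene (0.06 without white replicate 1) and -0.14 to 1.40 for peroxidase 72-like (TRINITY_DN12708_c3_g10).

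The replicate numbers are not stated to pair libraries, and deviations of same-numbered libraries correlated at 0.057, 0.056 and 0.011, all under 0.1. Each library correlated best with its own number, which is a hint from the data and not from the design. With the replicate block 2 peroxidase genes rose and 0 fell, and 735 and 490 genes over the whole table. The depth of the libraries is unknown, so the precision of low TPM values cannot be given.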
